A study of Mus musculus with 4 samples.

Results

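The 8 interferon regulatory factor genes Irf1, Irf2, Irf3, Irf4, Irf5, Irf7, Irf8 and Irf9 were followed in chromatin immunoprecipitation sequencing (ChIP-seq) of mouse peritoneal macrophages. They were chosen by name, as members of the family, among 21887 protein-coding genes, and all 8 were found. The cells came from C57BL/6 mice aged 8 weeks, were drawn into the peritoneum with thioglycollate broth, adhered to dishes, and were then kept for 24 h with lipopolysaccharide (LPS), the bacterial wall component sensed by Toll-like receptor 4, or with phosphate-buffered saline (PBS). Trimethylated lysine 4 of histone H3 (H3K4me3), found at promoters that are active or poised, and trimethylated lysine 9 (H3K9me3), a mark of silenced chromatin, were each profiled once per treatment, so there were 4 groups of 1 library and a difference between LPS and PBS has no replicate check. All 4 groups share the elicitation and the adherence. Genotype beyond the strain, sex, LPS dose and whether animals were pooled are not given in the sources used here, and no input library was analysed here. The antibodies were ab8580 (H3K4me3) and ab8898 (H3K9me3).

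The proteins of this family bind DNA through a shared N-terminal domain that reads repeats of GAAA, the core of the interferon-stimulated response element (ISRE). Irf3 is made constitutively and is switched on by phosphorylation below Toll-like and nucleic acid receptors, after which it acts on the interferon beta gene. Irf7 is itself an interferon-induced gene and amplifies the response. Irf9 joins STAT2 in the complex that carries the type I interferon signal to the nucleus. Irf1 is the induced activator of the interferon gamma response, and Irf2 competes with it for the same sites. Irf5 acts below the adaptor MyD88 on inflammatory cytokine genes, Irf8 works with PU.1 in building the monocyte and macrophage lineage, and Irf4 is tied to lymphocytes and to alternatively activated macrophages.

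The filtered libraries held 26748289 (LPS) and 29681491 (PBS) tags for H3K4me3 and 28586946 (LPS) and 27727997 (PBS) tags for H3K9me3, where a tag is a sequenced read kept by the authors' peak caller. Peaks held 14.04% of the H3K4me3 tags in LPS and 17.8% in PBS. Of 9 macrophage markers, among them Adgre1, Csf1r, Cd68 and Lyz2, all 9 had an H3K4me3 peak within 1 kb of a gene end in both libraries. The same held for 3 of 7 B cell, 3 of 7 T cell, 3 of 7 dendritic cell, 1 of 7 neutrophil, 1 of 6 eosinophil and mast cell, and 1 of 7 mesothelial and fibroblast markers. Among all protein-coding genes, 60.1% had such a gene-end peak in both libraries. Cd79b, Ms4a1 and Cd22 of the B cell list and Zbtb46, Clec9a, Siglech and Ccr7 of the dendritic cell list had no gene-end peak in either library. The mesothelial and fibroblast marker with a peak in both libraries was Pdgfrb, with 188 LPS and 62 PBS tags. In that list 4 further markers had a peak in PBS only, and 2 had none. In the neutrophil list Camp and S100a8 had a peak in LPS only (56 and 21 tags) and Mmp8 in PBS only (19 tags), and 3 had none. Summed gene-end tags were 2338 (LPS) and 3290 (PBS) for the macrophage list, 347 and 538 for B cells, 527 and 641 for T cells, 390 and 595 for dendritic cells, 317 and 269 for neutrophils, 201 and 236 for eosinophils and mast cells, and 188 and 345 for mesothelium and fibroblasts. A change in the mark per cell and a change in the mixture of cells cannot be told apart in such bulk libraries, and the part of these other cells in the Irf values was not tested.

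The DNA in front of 4 of the genes is shown: Irf2 holds the family's own element, Irf1 and Irf8 hold elements read by STAT dimers, and Irf7 had the highest LPS to PBS ratio. Each line is the 250 bases before the first annotated start from RefSeq (build GRCm38.p6, the same assembly as the mm10 of the files), written 5′ to 3′ on the strand of the gene. Capitals mark matches, on either strand, to the ISRE core (GAAA, any 2 bases, GAAA), to the gamma-activated sequence TTCNNNGAA that STAT dimers read (GAS), to the NF-kB consensus, and to TATAAA.
Irf1, plus strand of chr11:53769764-53770013: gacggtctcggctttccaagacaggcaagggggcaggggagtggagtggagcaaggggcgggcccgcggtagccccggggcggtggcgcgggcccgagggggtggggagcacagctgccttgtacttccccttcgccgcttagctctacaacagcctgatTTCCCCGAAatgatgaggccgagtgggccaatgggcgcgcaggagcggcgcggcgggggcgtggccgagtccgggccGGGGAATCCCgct
Irf2, plus strand of chr8:46739495-46739744: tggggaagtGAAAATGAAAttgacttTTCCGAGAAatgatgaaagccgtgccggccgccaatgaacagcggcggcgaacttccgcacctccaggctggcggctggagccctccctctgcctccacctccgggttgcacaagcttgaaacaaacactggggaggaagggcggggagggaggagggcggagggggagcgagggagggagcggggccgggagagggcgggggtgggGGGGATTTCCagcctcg
Irf7, minus strand of chr7:141266425-141266674: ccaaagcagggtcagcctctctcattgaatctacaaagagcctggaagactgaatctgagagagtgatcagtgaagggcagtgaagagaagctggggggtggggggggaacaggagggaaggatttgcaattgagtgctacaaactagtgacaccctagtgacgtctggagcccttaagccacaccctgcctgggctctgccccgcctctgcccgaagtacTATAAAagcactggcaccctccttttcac
Irf8, plus strand of chr8:120736108-120736357: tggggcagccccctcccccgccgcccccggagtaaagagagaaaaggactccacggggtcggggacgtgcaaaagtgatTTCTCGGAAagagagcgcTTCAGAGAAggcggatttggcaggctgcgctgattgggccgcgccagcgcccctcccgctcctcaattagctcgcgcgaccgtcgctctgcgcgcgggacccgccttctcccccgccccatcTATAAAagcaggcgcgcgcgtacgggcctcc
In the Irf1 promoter the GAS match TTCCCCGAA lay at bases -90 to -82, with the first base of the transcript as 0, and the NF-kB match GGGGAATCCC at -13 to -4. In the Irf2 promoter the ISRE match GAAAATGAAA lay at -241 to -232, a GAS match at -224 to -216 and an NF-kB match at -17 to -8. In the Irf8 promoter 2 GAS matches lay at -171 to -163 and -153 to -145 and TATAAA at -31 to -26. The Irf7 promoter held TATAAA at -29 to -24 and none of the other 3. The Irf4 promoter held TATAAA at -26 to -21. Irf3, Irf5 and Irf9 had none of the 4 in these windows. Among 21263 such windows of 17492 protein-coding genes, the ISRE core was found in 2.96%, GAS in 6.58%, the NF-kB consensus in 7.91% and TATAAA in 11.6%. These are matches of letters in a fixed window and were not tested as binding sites.
CpG pairs, the sites of DNA methylation that are dense in many H3K4me3 promoters, numbered 29 in the Irf8 window, 25 in Irf1 and in Irf5, 17 in Irf2, 16 in Irf3, 11 in Irf4, 7 in Irf9 and 3 in Irf7, against a median of 10 (quartiles 3 and 19). Irf7 thus had the fewest among the windows of first starts. Windows of second starts held 35 at Irf1, 8 at Irf8 and 1 at Irf9.

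H3K4me3 was first counted within 1 kb of the gene ends. All 8 genes had a peak there in both libraries, where 60.1% of all protein-coding genes did, 1.26% had one in LPS only and 3.14% in PBS only. Levels were compared as tags per 1000000 filtered tags between libraries, with 95% intervals that cover counting error only. Irf7, Irf4 and Irf1 had more tags in LPS, the interval of Irf9 held 0, and Irf8, Irf2, Irf5 and Irf3 had more in PBS.

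**Figure D1:**
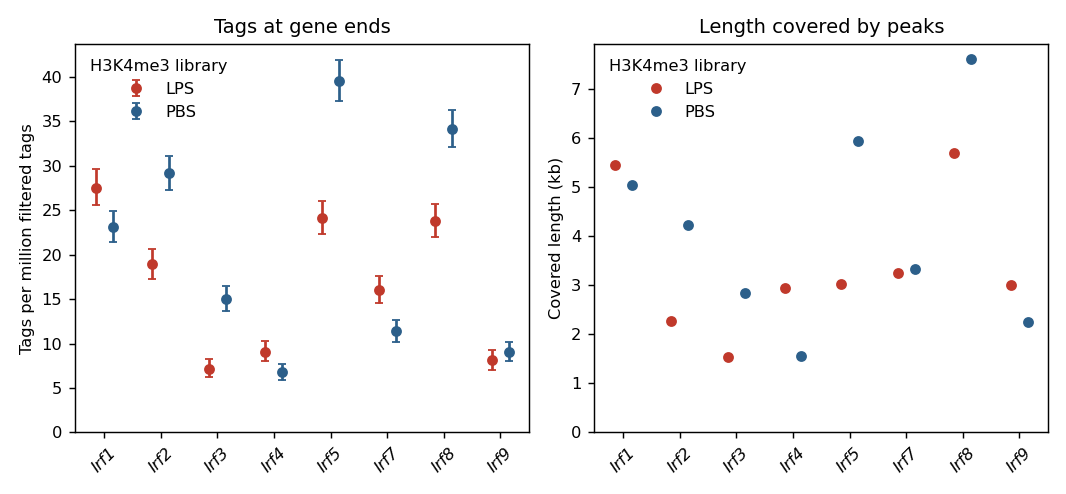
H3K4me3 at the 8 genes, by library (red LPS, blue PBS). The left panel gives tags per 1000000 filtered tags in peaks touching the 1 kb window round the gene end, with exact 95% Poisson intervals, and the right panel the length in kb that those peaks covered. Irf5 and Irf8 carry 39.6 and 34.2 in PBS against 24.1 and 23.8 in LPS, and cover 5.95 and 7.62 kb in PBS against 3.03 and 5.70 kb in LPS.

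Irf7, the amplifier of the type I interferon response, lies on the minus strand of chromosome 7 (141263183 to 141266499) and is short, so a single peak in each library ran over nearly the whole gene. It held 429 LPS tags over 3.25 kb and 337 PBS tags over 3.34 kb, or 16.0 and 11.4 tags per 1000000 filtered tags. The LPS level was 1.41 times the PBS level (log2 ratio 0.50, 95% interval 0.29 to 0.71), over nearly equal lengths. Of all promoters with peaks in both libraries, 1.56% had a higher ratio. The LPS peak summit lay 952 bp past the start and the PBS summit 174 bp past it. An annotated end of Phrf1 lies 432 bp from the far end of Irf7, and its window meets the same peak. A separate region at -3845 to -2047 bp, ahead of the start, had 161 and 183 tags (-0.03, -0.35 to 0.28), so the order seen over the gene was not seen there. That region lies over an annotated end of Cdhr5, 2581 bp from Irf7, so it cannot be assigned to Irf7 alone.

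Irf1, the activator of the interferon gamma response, lies on chromosome 11 (53770014 to 53778374). Its peak held 737 LPS tags over 5.46 kb and 686 PBS tags over 5.05 kb, a log2 ratio of 0.25 (0.10 to 0.41). The LPS peak ran from 7 to 5469 bp past the first start and the PBS peak from 795 bp before it to 4251 bp past it. The called peak thus reached further into the gene in LPS and further upstream in PBS. Only 1.004% of promoters had more tags in LPS, and 5.82% in PBS. A separate region at -8664 to -5652 bp had 203 LPS and 251 PBS tags (-0.16, -0.43 to 0.12), and one 13.5 to 14.5 kb past the start had 70 and 60 (0.37, -0.15 to 0.89). The counting intervals of both held 0.

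Irf4, the factor of alternative activation, on chromosome 13 (30749233 to 30766981), had 243 LPS tags over 2.95 kb and 200 PBS tags over 1.57 kb within the window, a log2 ratio of 0.43 (0.16 to 0.71). This order rested on the edge of the window. The LPS list had a single peak from 477 bp before the start to 2469 bp past it, while the PBS list had 2 peaks, the second of which began 1056 bp past the start, just outside 1 kb. With that second peak of 111 tags the merged region had 243 tags in LPS and 311 in PBS (-0.21, -0.45 to 0.04), an interval that holds 0. With all peaks of the merged region counted, a difference in tags at Irf4 was not detectable beyond counting error. These peaks covered 2.95 kb in LPS and 2.49 kb in PBS, which gave a ratio of -0.45 per covered kb. The LPS summit (1265 bp) and the summit of the second PBS peak (1266 bp) lay 1 bp apart. Past the gene, a weak region at 20169 to 21034 bp had 42 and 22 tags (1.08, 0.31 to 1.90), at 0.23 per covered kb, and the PBS list alone had 33 tags at 17193 to 17752 bp.

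Irf9, the DNA-binding partner of STAT2, on chromosome 14 (55603985 to 55610030), had 2 peaks in each library on either side of a gap just past the first start. Together they held 217 LPS and 268 PBS tags (log2 ratio -0.15, -0.42 to 0.11). The region upstream of the gap had 113 tags in LPS and 95 in PBS (0.40, -0.01 to 0.81), and the region downstream, which holds the second annotated start, 104 and 173 (-0.58, -0.95 to -0.22). The sum thus joined an upstream region whose interval held 0 and a downstream region that was lower in LPS. Upstream the LPS peak covered 1.65 kb and the PBS peak 0.94 kb (-0.42 per covered kb). Rnf31, a ubiquitin ligase subunit gene, has an annotated end 311 bp from Irf9. The upstream region lies over that end in both libraries, so it cannot be assigned to Irf9 alone. A region at the other end of Rnf31 had 342 and 340 tags (0.16, -0.06 to 0.38).

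Irf5, the factor below MyD88, on chromosome 6 (29526130 to 29541869), carried the most tags of the 8 in PBS. Its first annotated start is base 29526625. It had 645 LPS tags over 3.03 kb and 1175 PBS tags over 5.95 kb, a log2 ratio of -0.72 (-0.86 to -0.58), or 1.64 times more in PBS. Only 0.441% of all promoters had more tags in PBS. The summits were 18 bp apart, 265 and 283 bp past the start, but the PBS peak ran on to 5202 bp and the LPS peak ended at 2461 bp. Per covered kb the sign turned (0.26), so the higher tag sum in PBS went with a longer called peak. A second region 7.59 to 10.5 kb past the start had 131 and 182 tags (-0.32, -0.66 to 0.01).

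Irf8, the lineage factor, on chromosome 8 (120736358 to 120756694), had the broadest called H3K4me3 peak of the 8. Its peak held 637 LPS tags over 5.70 kb and 1014 PBS tags over 7.62 kb (log2 ratio -0.52, -0.67 to -0.38). The PBS peak had a score of 71.6, where the caller's lower limit was 50. In both libraries the peak began about the same distance upstream, 792 bp in LPS and 855 bp in PBS, and covered both annotated starts. The summits lay at -316 bp in LPS and -264 bp in PBS. Per covered kb the ratio was -0.10, above the median of all promoters on that scale (-0.21). In PBS 0.905% of promoters had more tags. A weak region 23.5 to 24.6 kb past the start, beyond the end of the gene, had 56 and 63 tags (-0.02, -0.57 to 0.52).

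Irf2, the competitor of Irf1, also on chromosome 8 (46739745 to 46847458), is the longest of the genes, at 107.7 kb. Within the window it had 506 LPS tags over 2.28 kb and 865 PBS tags over 4.23 kb (log2 ratio -0.62, -0.79 to -0.46). The PBS sum came from 2 peaks, 1 of 646 tags past the start and 1 of 219 tags before it, at -1864 to -194 bp. The upstream peak had no LPS counterpart, and its score of 51.6 was just above the caller's lower limit of 50. Over the region that both libraries shared, 506 tags stood against 646 (-0.20, -0.37 to -0.03), with summits 7 bp apart, 1102 and 1109 bp past the start. The noncoding RNA gene Gm16675 has an annotated end 230 bp from Irf2, so the upstream peak cannot be assigned to Irf2 alone. Deeper in the gene, 3 weak regions were listed in LPS only (27, 52 and 59 tags) and 5 in PBS only (23 to 57 tags). One region 24.5 to 26.0 kb past the start was found in both, with 80 and 103 tags (-0.21, -0.65 to 0.22).

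Irf3, the factor that TBK1 phosphorylates, on chromosome 7 (44997648 to 45002848), had the lowest ratio of the 8. It had 192 LPS tags over 1.54 kb and 447 PBS tags over 2.84 kb, a log2 ratio of -1.07 (-1.32 to -0.82), or 2.10 times more in PBS. It was the only member past 2-fold in either direction, which 3.65% of 12705 promoters with at least 100 tags were towards PBS and 0.37% towards LPS. Here too the PBS sum came from 2 peaks on either side of the start, and the upstream one, of 159 tags and score 128, had no LPS counterpart. It lies over Bcl2l12, a neighbour whose annotated end is 10 bp from the start of Irf3. The region past the start, found in both libraries, had 192 and 288 tags (-0.43, -0.71 to -0.17), with summits 334 and 353 bp past the start. Without the upstream peak Irf3 thus lay near the median of all such regions (-0.36), at a difference of -0.08. A region at -10809 to -9357 bp had 90 and 164 tags (-0.72, -1.10 to -0.34), at -0.07 per covered kb.

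**Figure D2:**
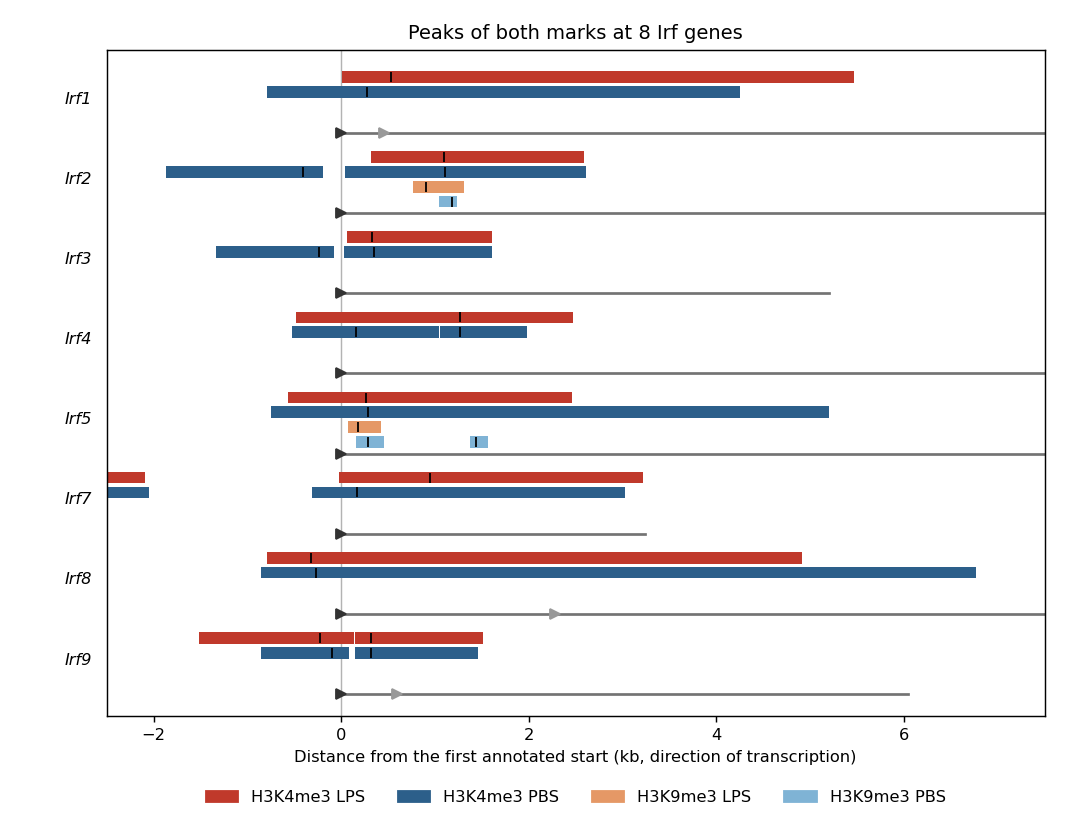
Peaks at the 8 genes, drawn against distance in kb from the first annotated start, in the direction of transcription. Bars are H3K4me3 peaks in LPS (red) and PBS (blue) and H3K9me3 peaks in LPS (orange) and PBS (light blue), black ticks are summits, grey lines are genes and grey arrowheads second starts. The PBS peaks of Irf1, Irf2, Irf3 and Irf7 reach in front of the start, where LPS peaks begin at or past it or, at Irf7, 23 bp before it.

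The peaks differed in how much of the printed promoter stretch they covered. In PBS the 250 bases before the first start were covered whole at Irf1 and Irf7, and for 177 bases at Irf3 and 57 at Irf2. In LPS the cover was 0 bases at Irf1, Irf2 and Irf3 and 23 at Irf7. At Irf4, Irf5, Irf8 and Irf9 both libraries covered all 250. Cover was thus larger in PBS at 4 of 8 genes and larger in LPS at 0, where 28.5% and 13.6% of 10528 promoters with a gene-end peak in both libraries were so. At Irf3 the PBS cover came from the peak over Bcl2l12. At Irf2 it came from the upstream peak of score 51.6, near the caller's limit of 50, which cannot be assigned to Irf2 alone. The ISRE and GAS matches of Irf2 lay inside that weak PBS peak and outside every LPS peak, and its NF-kB match lay outside both. The GAS and NF-kB matches of Irf1 lay inside a PBS peak and outside every LPS peak. The 2 GAS matches of Irf8 lay inside the peaks of both.

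The whole distribution of promoters was shifted towards PBS, which bears on how these ratios read. Over 13151 promoters with peaks in both libraries the median log2 ratio was -0.36 in tags and -0.21 per covered kb. The median of the 8 Irf genes was -0.34 (quartiles -0.65 and 0.30), next to that of all promoters, and their spread was wide. The ratio was above 0 at 3 of the 8, where 9.14% of all promoters were. The counting interval lay above 0 at 3 genes and below 0 at 4, where 2.48% and 68.3% of promoters did so. Over the region with most tags at each gene the median was -0.32 against -0.36 for all, with 2 of 8 above 0 against 9.03% of all. There the interval was above 0 at Irf1 and Irf7, held 0 at Irf4, and was below 0 at the other 5, against 2.25% above and 66.4% below among all regions. None of the 8 reached 2-fold on this measure, which 0.226% of regions did towards LPS and 2.51% towards PBS. Over 22219 merged regions found in both libraries the median was -0.31. With that median set to 0, Irf2 and Irf4 came to 0.10 each over the main region and Irf9 to 0.15 at gene ends, above 0 in place of below.

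**Figure D3:**
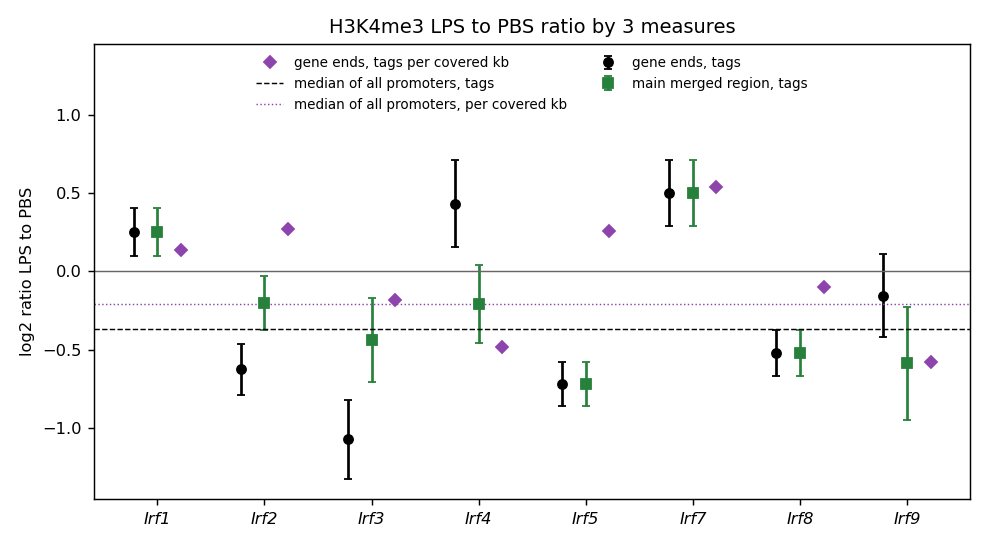
log2 ratio of LPS to PBS H3K4me3 at each gene by 3 measures. Black circles are tags at gene ends and green squares tags over the merged region with most tags, both with exact 95% counting intervals; purple diamonds are tags per covered kb at gene ends, and the dashed and dotted lines are the medians of all promoters (-0.36 and -0.21). Only Irf1 and Irf7 lie above 0 on all 3 measures, and only Irf3, Irf8 and Irf9 below 0 on all 3.

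Per covered kb, a scale that allows for peak length but depends on the called edges, Irf2 and Irf5 came first in both libraries. In LPS Irf2 had 8.30 tags per 1000000 per covered kb and Irf5 7.96, followed by Irf1 (5.04), Irf7 (4.94), Irf3 (4.66), Irf8 (4.18), Irf4 (3.08) and Irf9 (2.69). In PBS Irf2 had 6.88 and Irf5 6.66, followed by Irf3 (5.30), Irf1 (4.58), Irf8 (4.48), Irf4 (4.30), Irf9 (4.02) and Irf7 (3.40). Neighbours in either order had overlapping counting intervals, except between Irf5 and the next gene in both libraries and between Irf8 and Irf4 in LPS. Irf7 was thus last in PBS and among 4 genes with overlapping neighbours in LPS. Its ratio per covered kb (0.54) was exceeded at 0.532% of promoters. At Irf2 and Irf5 the ratio per covered kb was 0.27 and 0.26, which 3.57% and 3.78% of promoters exceeded, and at Irf4 and Irf9 it was -0.48 and -0.58. At Irf2 this again took in the upstream PBS peak: over the shared region alone it had 8.30 in LPS and 8.50 in PBS, a ratio per covered kb of -0.03. In all, 4 of 8 were above 0 on this scale, where 18.7% of promoters were.

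The length covered at gene ends was above the median of all promoters in both libraries except at Irf3 in LPS (1.54 kb) and Irf4 in PBS (1.57 kb). The median of the 8 genes was 3.02 kb in LPS and 3.78 kb in PBS, against 1.61 and 1.83 kb at all promoters. Over the main merged region the median was 2.99 kb in LPS and 2.95 kb in PBS, against 1.54 and 1.74 kb for all. The medians of the 2 libraries were thus close there, but Irf2, Irf3, Irf5, Irf7 and Irf8 still covered more in PBS. Irf3 (1.54 and 1.58 kb) and Irf9 (1.36 and 1.31 kb) were below the medians of all. Irf1 and Irf8 covered 5 kb or more in LPS and Irf1, Irf5 and Irf8 in PBS, where 1.29% and 1.86% of promoters did. Cover was longer in PBS at 5 genes and longer in LPS at Irf1, Irf4 and Irf9; it was longer in PBS at 71.9% of all promoters. Tags exceeded the median of all promoters at 7 of 8 genes in LPS, Irf3 being the exception, and at 6 of 8 in PBS, where Irf4 and Irf9 did not.

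**Figure D4:**
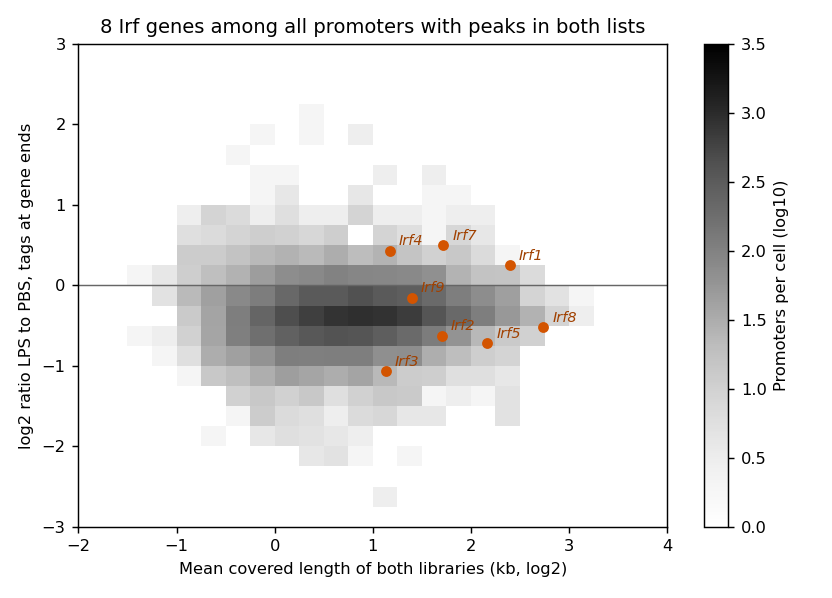
The 8 Irf genes (orange) among 13151 promoters with H3K4me3 peaks in both libraries, shaded by number of promoters on a log10 scale. The horizontal axis is the mean covered length of both libraries in kb (log2) and the vertical axis the LPS to PBS ratio of tags at gene ends (log2). All 8 sit at a mean length over the medians of all promoters (1.61 and 1.83 kb), and they spread from -1.07 at Irf3 to 0.50 at Irf7.

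Genes with the most similar H3K4me3 values were sought by Euclidean distance over 4 values, the log2 tags and log2 covered length in both H3K4me3 libraries. The nearest to Irf7 was Hmx3, a homeobox gene (398 and 364 tags, distance 0.23), followed by Lgals9, the galectin 9 gene (376 and 348 tags, 0.27). Ehd1 was nearest to Irf1 (666 and 694 tags, 0.26), Flrt2 to Irf8 (607 and 950 tags, 0.15) and Ctdsp2 to Irf5 (639 and 1216 tags, 0.23), with Dusp4, a MAP kinase phosphatase gene, next (0.29). Gabarap with Phf23, which share peaks, and Klf2 were nearest to Irf2 (0.12 and 0.15), Stx4a to Irf3 (0.09), Mgst1 to Irf4 (0.14) and Ltb4r2 to Irf9 (0.15). This is a likeness over 2 libraries of 1 mark.

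H3K9me3 was listed on the body of 2 of the 8 genes, Irf2 and Irf5, in both libraries, where 16.1% of all protein-coding genes were. The other 6 genes had no peak on the body in either library. Irf2 had 1 peak of 46 tags over 536 bp in LPS and 1 of 14 tags over 187 bp in PBS, a log2 ratio of 1.67 (0.78 to 2.65) that was 0.15 per covered kb. Irf5 had 1 peak of 27 tags in LPS and 2 of 24 and 12 tags in PBS, a log2 ratio of -0.46 (-1.24 to 0.30) and 0.02 per covered kb. The Irf5 interval held 0, and at the Irf5 site found in both lists 27 LPS tags stood against 24 PBS tags (0.13, -0.72 to 0.98).

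Both sites of H3K9me3 lay inside the H3K4me3 region past the start. At Irf5 the H3K9me3 summits were 177 bp (LPS) and 283 bp (PBS) past the start, where the PBS summit of H3K4me3 also lay, to within about 1 bp. At Irf2 they were 906 and 1178 bp past it, with the H3K4me3 summits at 1102 and 1109 bp. Irf2 and Irf5 were also the 2 genes with the most H3K4me3 per covered kb in each library. Of main H3K4me3 regions with as many tags as those of the 8 genes (277 to 1820 in both libraries together), 13.8% of 10043 held an H3K9me3 peak in both libraries. The caller's fragment length was 71 and 66 bp for the H3K9me3 libraries against 149 and 142 bp for H3K4me3, and H3K9me3 peaks held 1.62% and 1.69% of the tags; the part of this in the overlap was not tested.

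The other genes of the pathway were read in 4 lists, by counts and medians of the H3K4me3 ratio at gene ends. Of 21 genes that lead to IRF activation, 20 had a peak in both libraries, with a median of -0.46 against -0.36 for all promoters. The interval was below 0 at 13 and above 0 at 1, where 68.3% and 2.48% of all promoters were. Past 2-fold were 4 of the 20 towards PBS and 0 towards LPS, against 3.65% and 0.37% of all. The 4 were the double-stranded RNA receptor Tlr3 (34 and 109 tags, -1.53, -2.13 to -0.96), the TBK1 adaptor Tank (93 and 261, -1.34, -1.70 to -0.99), the Toll-like receptor adaptor Myd88 (292 and 706, -1.12, -1.33 to -0.92) and the kinase Irak4 (141 and 325, -1.05, -1.35 to -0.77). Over the main region Tank came to -0.38 and Myd88 to -0.03. Tbk1, the kinase of Irf3, had 185 and 293 tags (-0.51, -0.79 to -0.24).

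Interferon receptors, their kinases and STATs had 14 of 15 genes with a peak in both libraries and a median of -0.37, with 0 past 2-fold in either direction. Ifngr1, a chain of the interferon gamma receptor, was lowest (131 and 279 tags, -0.94, -1.25 to -0.64), at 0.03 per covered kb. Stat2, the partner of Irf9, had 96 and 155 tags (-0.54, -0.92 to -0.16). Jak2 had 429 and 682 tags (-0.52, -0.70 to -0.34) and the phosphatase gene Ptpn6 255 and 377 (-0.41, -0.65 to -0.18). The feedback protease gene Usp18 had a peak in PBS only (126 tags).

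Partners and cofactors had 14 of 16 genes in both and a median of -0.29, with 0 past 2-fold. Nfkb1 had 356 and 556 tags (-0.49, -0.69 to -0.30), Cebpb 942 and 1414 (-0.44, -0.56 to -0.32), and the coactivators Ep300 451 and 654 (-0.39, -0.56 to -0.21) and Crebbp 455 and 640 (-0.34, -0.52 to -0.17). The Irf2 cofactor Irf2bp2 had 897 and 998 tags, with an interval of -0.14 to 0.13. Spi1, which encodes PU.1, the partner of Irf4 and Irf8, had a gene-end peak listed in LPS only (503 tags). In PBS it was under the caller's limit, so the mark may still be present there.

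Interferons and textbook IRF targets had 16 of 26 genes found (of 28 listed, Mx1 and Mx2 being unmatched) with a peak in both libraries, 1 with a peak in LPS alone, 4 in PBS alone and 5 without. Their median was 0.67, and 0.05 per covered kb. The interval was above 0 at 9 and below 0 at 2, against 2.48% and 68.3% of all promoters. Tags summed over the list, not scaled to library size, were 3904 in LPS and 3932 in PBS. These sums count the peak shared by Tap1 and Psmb9 (503 and 628 tags) at both genes. Of 13 with at least 100 tags, 3 were past 2-fold towards LPS and 1 towards PBS, against 0.37% and 3.65% of all. Zbp1 and Oas2 lay at 1.38 and 1.49 and covered 3.39 and 3.19 kb in LPS against 1.52 and 1.35 kb in PBS. Ifit1 lay at 1.12 and B2m at -1.35, and over the main region they came to 0.58 and -0.40.

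**Figure D5:**
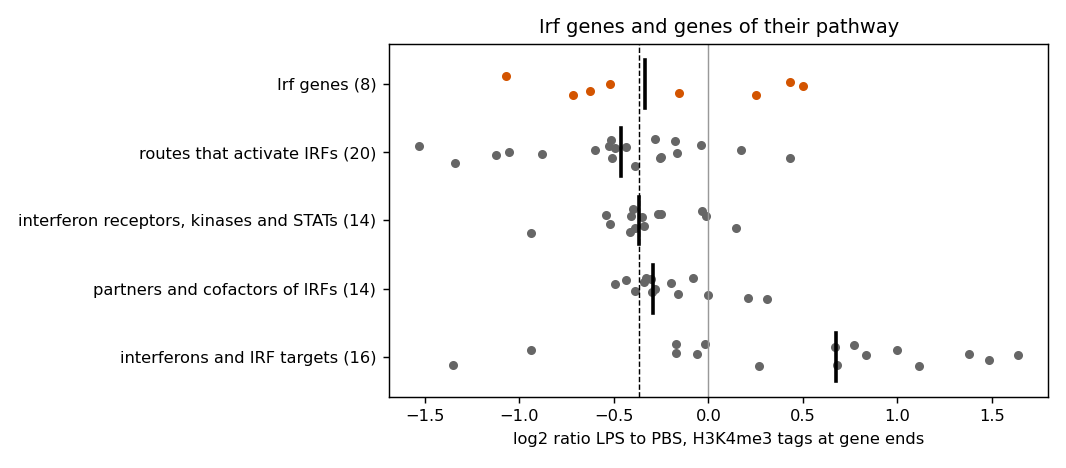
log2 ratio of LPS to PBS H3K4me3 tags at gene ends for the 8 Irf genes (orange) and 4 lists of pathway genes (grey), with the number of genes that have peaks in both libraries. Thick bars are medians and the dashed line is the median of all promoters (-0.36). The target list has a median of 0.67, while the other lists lie between -0.46 and -0.29 and the Irf genes at -0.34.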

How the data were processed

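Each sample was 1 ChIP-seq library and 1 deposited list of peaks. Per the submitters' processing notes, CASAVA 1.4, Bowtie 0.12.8, MACS 1.4.2, DiffBind and build mm10 were used. Peaks were called by MACS on 1 library at a time, with no control and a p cutoff of 1e-05, per the file headers, keeping at most 1 tag per position, which limits counts in the densest peaks. The deposited values are the count of tags in each peak, a score (minus 10 times log10 of the peak's p-value) and a fold enrichment ratio over local background; the score was read only against its own list's limit, and the fold entered no result. A gene or region not listed was under the caller's limit, so it may still carry the mark.

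Genes came from RefSeq GRCm38.p6. Tags of all peaks touching the window within 1 kb of a gene end were summed, at the end with more tags, and divided by filtered tags. Peaks of both lists that overlapped or touched were merged, and the region with most tags at the window was taken. Ratios carry exact 95% Clopper-Pearson intervals. No test between treatments was possible with single libraries. All 8 genes were named whatever their values; of each list up to 4 genes with at least 100 tags and the largest ratios were named, and others were chosen after their values were seen. Members and lists were chosen with earlier results of these data known. Intervals were checked on simulated counts and region merging against bedtools 2.31.1 (Python 3.11.15, scipy 1.17.1). The simulation gave both libraries the same peak edges, so it did not check ratios that depend on separately called edges.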

Additional observations from a re-analysis of the deposited data

How the results depend on the processing

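The median log2 ratio of the 8 genes at gene ends was -0.34. It turned to 0.019 per covered kb and to 0.026 with only peaks of score 100 or more. That score left 6 genes, because Irf8 lost its PBS peak (score 71.6) and Irf9 its LPS peaks (56.0 and 73.3). The median moved to -0.031 with the median shared region set to 0. The median over merged regions, -0.32, moved to -0.067 per covered kb and to -0.014 with the median shared region set to 0. With a window of 2.5 kb Irf4 turned to -0.21. Per covered kb at gene ends Irf2 turned to 0.27, Irf4 to -0.48 and Irf5 to 0.26, and Irf5 to 0.26 over its merged region. With the median shared region set to 0, Irf2 and Irf4 turned to 0.10 each over their merged regions and Irf9 to 0.15 at gene ends. With peaks up to 1 kb apart merged, Irf2 and Irf3 came to -0.62 and -1.07, the values at gene ends. H3K9me3 was found on 2 gene bodies in both libraries with 5 kb added on either side or with 50% of the peak required inside the gene, and on 0 with peaks of score 100 or more, where 1 gene remained in each list. Annotated starts in place of gene ends changed no value. No paired analysis was possible because each group held 1 library. Weak peaks held few tags, so H3K9me3 ratios have wide intervals.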
